A study of Mus musculus with 6 samples.

Results

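The subject was the set of enzymes that carry glucose from its entry phosphorylation to the split of the sugar into trioses. The list held 10 mouse genes: the hexokinases Hk1 and Hk2, the glucose-6-phosphate isomerase Gpi1, the phosphofructokinase subunits Pfkl, Pfkm and Pfkp, the bifunctional regulators Pfkfb3 and Pfkfb4, and the aldolases Aldoa and Aldoc. They were taken by symbol, whatever their values, but the list was made with earlier results of these data known. Of the 10 genes, 9 had a row on the array that named them and no other gene, 1 row each, among 30701 genes tested in all. Gpi1 has no level here, because the annotation used here names it on no row. It enters only the description of promoter sequences.

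RNA came from 6 cultures of mouse CD4 T cells on Affymetrix arrays, 3 with glutamine and 3 without it, labelled as biological replicates. Naive cells (CD4+CD25-CD62L+CD44-) were sorted, stimulated with antibodies to CD3 and CD28 for 3 days, and in both groups received TH17-skewing medium: IMDM with 10% serum, 20 ng/ml of each of the cytokines IL-23 and IL-6, 1.25 ng/ml of TGFb, and blocking antibodies to IL-12, IL-4 and IFNg (10 ug/ml). The groups differed in glutamine alone as far as the labels say. The labels name neither a mouse strain nor an age, nor the animals behind each replicate; the p-values below therefore reflect only how these arrays spread, which may be technical.

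Each array gives 1 log2 level per gene on the scale the authors deposited. The array medians lay between 4.18 and 4.21 with glutamine and between 4.33 and 4.38 without it, and 695 to 887 rows per array stood above 16, so a scaling step that the sources do not name may have stretched the values; changes are therefore given as log2 differences and not as folds. The labelled cell type was checked against its markers: 7 of 9 CD4 T cell markers had a row, and their group means ran from 11.31 to 17.34, whereas the 3 measured B cell markers stayed at or below 4.55. Without glutamine the CD4 T cell markers Cd3d and Cd5 rose by 0.88 and 0.51, and Thy1 fell by 0.93 (limma adjusted p = 0.0174, 0.0118 and 0.00992). The other 4 did not pass an adjusted p under 0.05. The 4 of 5 TH17 markers with a row all fell without glutamine, by a median of 4.17. Of markers of other cells, 5 of 6 myeloid, 2 of 3 NK cell, 1 of 2 CD8 T cell and the 1 measured erythroid marker stayed below 5 in both groups. Those markers of other cells that passed the same threshold fell with the enzymes below: Lyz2 from 5.80 ± 0.33 to 4.14 ± 0.14 (SD, n = 3), S100a8 from 3.67 ± 0.15 to 3.12 ± 0.23, Klrd1 from 7.99 ± 0.24 to 6.57 ± 0.21 and Cd8b1 from 8.10 ± 0.25 to 7.39 ± 0.09. Their part in the results was not tested.

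Upper glycolysis spends ATP to prime glucose. Hexokinase traps glucose in the cell as glucose-6-phosphate, phosphofructokinase commits the sugar to glycolysis and is the main point of control, and aldolase cleaves fructose-1,6-bisphosphate. Activated T cells raise this pathway when they begin to divide, and TH17 cells are known to depend on it, with HIF-1 and Myc as known activators of its genes.

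Without glutamine at least 1 gene fell at every step measured. Of the 9 genes, 8 fell (limma, adjusted p under 0.05), against 13.0% of all genes tested that fell and 24.9% of the genes above the median level, among which all 9 lie. None rose at that threshold or at an unadjusted p under 0.05 (0 of 9 in both cases with limma, the tool used throughout), against 9.30% of all genes called higher. By at least 1 log2, 4 of the 9 fell (Hk2, Pfkl, Pfkm and Aldoc), against 2.84% of all genes. After quantile normalization 5 did (3.43% of all genes), and with every array's median set to the same value, 6 did (3.90%). In 8 of the 9 the groups did not overlap, against 43.8% of all genes. The median change of the 9 was -0.91 log2, beside a median of 0.060 over all genes. Because whole cultures were measured, less of a transcript in each cell and fewer cells that hold it cannot be told apart.

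**Figure D1:**
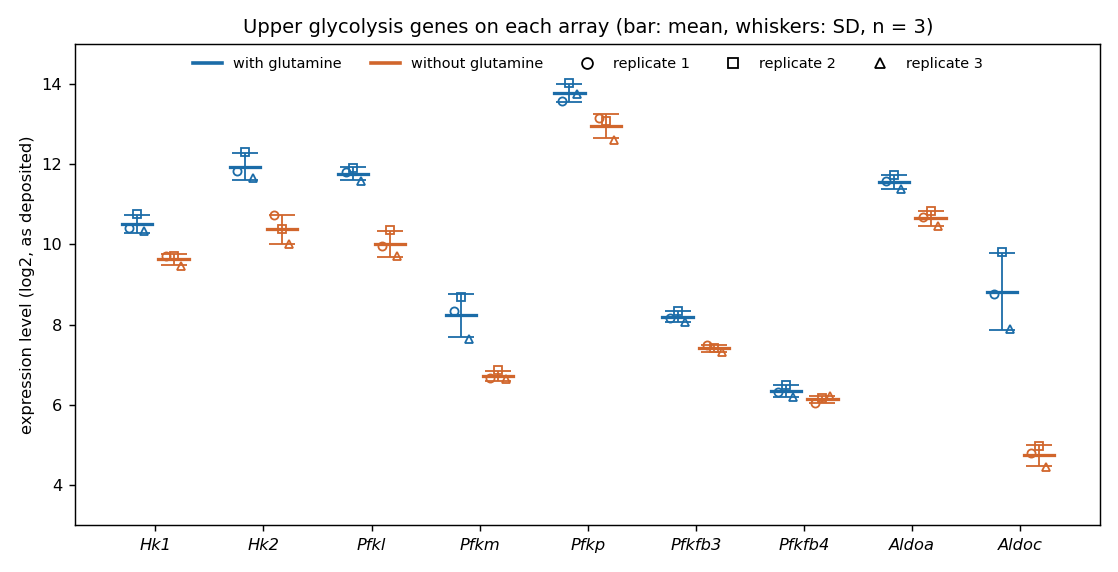
Log2 level as deposited (vertical axis) of 9 upper glycolysis genes on each of 6 arrays; blue is with glutamine, orange without, symbols are replicates, bars are means and whiskers SD over n = 3. Every gene but Pfkfb4 has its 3 arrays without glutamine below its 3 arrays with it; heights of different genes are not comparable, since each row has its own probes.

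Both hexokinase genes fell. Hk2, the inducible hexokinase of dividing cells, stood at 11.83, 12.31 and 11.66 log2 on the arrays with glutamine and at 10.74, 10.39 and 10.01 without it. The lowest array with glutamine was 0.93 above the highest without it. The change was -1.55 log2 with a standard error of 0.229 (95% interval -2.10 to -1.01, limma adjusted p = 0.0051). Hk1, the hexokinase found in most tissues, stood at 10.42, 10.77 and 10.33 with glutamine and at 9.70, 9.72 and 9.46 without it. It fell by 0.88 with a standard error of 0.136 (limma adjusted p = 0.00617), again without overlap. Within each array Hk2 exceeded Hk1 by 1.43 ± 0.11 log2 with glutamine and by 0.76 ± 0.25 without it (SD, n = 3). The difference between those values, -0.68 with a standard error of 0.158, separated the groups completely, but an exact two-sided permutation test of 3 against 3 arrays cannot go below 0.1, the value it gave (0.125 adjusted over the 5 isoenzyme pairs compared).

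Phosphofructokinase is a tetramer whose subunits come from 3 genes, and all 3 fell. Pfkl, the liver-type subunit, stood at 11.80, 11.90 and 11.59 with glutamine and at 9.95, 10.37 and 9.71 without it. Its change of -1.75 (standard error 0.176, 95% interval -2.17 to -1.33, limma adjusted p = 0.00129) ranked 234th among all falls. Pfkm, the muscle-type subunit, stood at 8.34, 8.69 and 7.65 with glutamine and at 6.67, 6.86 and 6.63 without it. The arrays with glutamine spread over 1.05 log2 and those without over 0.23, and the groups were 0.79 apart. Pfkm fell by 1.51 (standard error 0.252, limma adjusted p = 0.00788). Pfkp, the platelet-type subunit, moved less: 13.58, 14.03 and 13.74 with glutamine against 13.16, 13.07 and 12.61 without it. It fell by 0.84 (standard error 0.178, limma adjusted p = 0.0182). The call was lost in the fit lacking with glutamine replicate 2 (-0.72, adjusted p = 0.0562; 0.00867 to 0.0562 over its alternatives).

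The changes of the subunit genes were then compared within arrays. Pfkp minus Pfkl within an array was 2.02 ± 0.21 with glutamine and 2.93 ± 0.26 without it (SD, n = 3), a difference of 0.91 with a standard error of 0.191. The groups did not overlap, and the exact permutation p was 0.1, the smallest possible (0.125 adjusted over the 5 pairs). Pfkm minus Pfkl was -3.53 ± 0.37 with glutamine and -3.29 ± 0.22 without it, a difference of 0.24 with a standard error of 0.249. Here the groups overlapped (exact permutation p = 0.5, the same after adjustment), so an unequal fall of Pfkm and Pfkl was not detectable with these arrays. Such differences are between rows with their own probes, so they describe relative change and not which subunit is more abundant. With a smallest possible p of 0.1, the test could not establish unequal change for either pair. Whether the probes respond alike was not tested.

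The PFKFB enzymes set the level of fructose-2,6-bisphosphate, the strongest activator of phosphofructokinase. Pfkfb3, whose product favours the kinase reaction, stood at 8.16, 8.34 and 8.07 with glutamine and at 7.48, 7.42 and 7.31 without it. It fell by 0.78 (standard error 0.0927, limma adjusted p = 0.00227), and its arrays were the closest together of the genes that fell, spanning 0.26 and 0.17 log2 within the groups. Pfkfb4 was the member that did not pass: 6.31, 6.49 and 6.20 with glutamine, 6.04, 6.17 and 6.21 without it. The highest array without glutamine lay above the lowest with it. The change was -0.19 (95% interval -0.43 to 0.04, limma adjusted p = 0.202). After centring each array on its median it reached -0.35 with an adjusted p of 0.0471, and over the alternatives the adjusted p ran from 0.0471 to 0.459. Pfkfb4 minus Pfkfb3 was -1.86 ± 0.02 with glutamine and -1.26 ± 0.17 without it (SD, n = 3). That difference of 0.59 (standard error 0.0998) again separated the groups, with the smallest exact permutation p of 0.1 (0.125 adjusted).

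The aldolase genes showed the widest contrast among the 9. Aldoc, the aldolase best known from brain, stood at 8.76, 9.82 and 7.89 with glutamine and at 4.80, 4.97 and 4.45 without it. With glutamine the arrays spread over 1.93 log2, yet the lowest was still 2.92 above the highest array without glutamine. Its change of -4.09 (standard error 0.453, 95% interval -5.17 to -3.01, limma adjusted p = 0.00181) was the 14th largest fall of all genes. The level without glutamine exceeded 51.8% to 59.1% of the rows of the same array, close to the array medians, where an array has little room to register a further fall. Aldoa, the aldolase of muscle and most dividing cells, stood at 11.57, 11.73 and 11.38 with glutamine and at 10.68, 10.83 and 10.45 without it. It fell by 0.91 (standard error 0.130, limma adjusted p = 0.00467). Aldoc minus Aldoa went from -2.73 ± 0.79 to -5.91 ± 0.08, a difference of -3.18 with a standard error of 0.461 and the smallest exact permutation p of 0.1 (0.125 adjusted). Aldoa has retrogene copies, chosen here after their values were seen: Aldoart1 lay between 4.46 and 5.34 and Aldoart2 between 5.13 and 5.35 over the 6 arrays, and Aldoart1 fell by 0.57 (limma adjusted p = 0.0467). Whether they add to the Aldoa row was not tested.

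**Figure D2:**
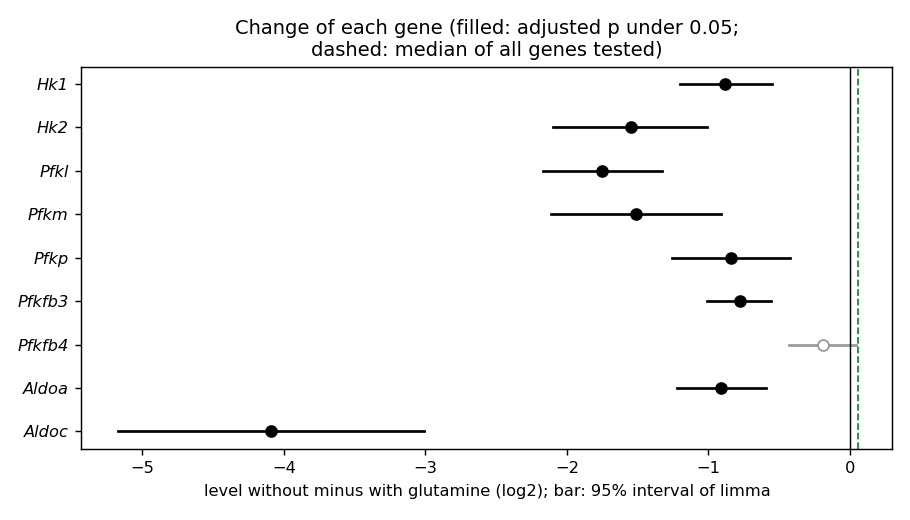
Change of each gene (horizontal axis, log2 level without minus with glutamine) with its 95% interval from limma; filled points have an adjusted p under 0.05, and the dashed line is the median of all genes tested, 0.060. Aldoc lies furthest left at -4.09, and the interval of Pfkfb4 reaches from -0.43 to 0.04.

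**Figure D3:**
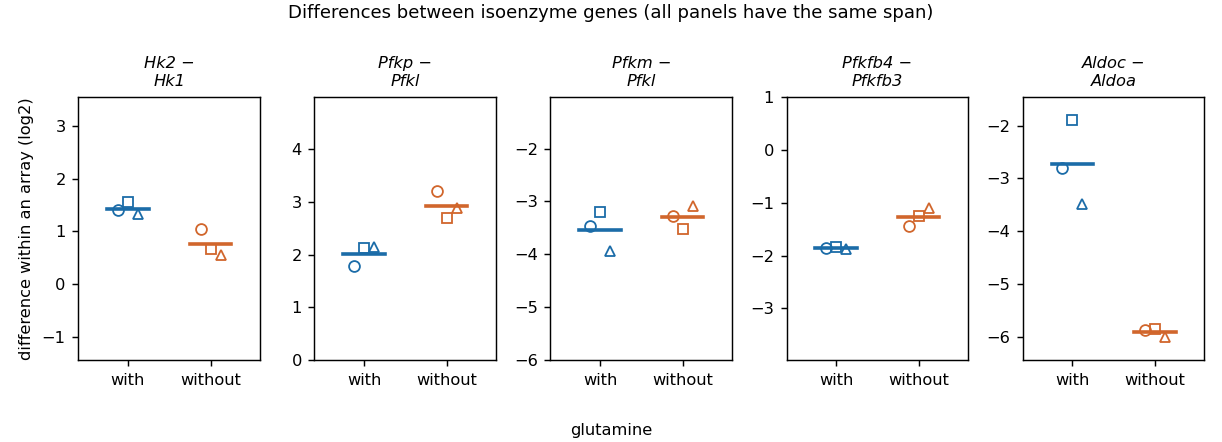
Difference between 2 isoenzyme genes on the same array (vertical axis, log2, every panel with the same span) with and without glutamine; symbols are arrays and bars group means, n = 3. The groups are apart in all panels but Pfkm minus Pfkl.

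Since most of the measured genes fell together, the bases before the start sites of all 10 listed genes were read for short motifs. These were the ACGTG form of the HIF-1 response element core (either strand) and the E-box bound by Myc and ChREBP. The E-box, CACGTG, contains the former on both strands. The GCGTG form of the core was not searched, so the matches and shares below leave it out. RefSeq windows for GRCm38.p6 matched all 10 genes, and for each the 250 bases before the outermost of the starts listed there were used. In 5 of the 10 (Hk1, Pfkp, Pfkfb3, Pfkfb4 and Aldoa) RefSeq's gene extends further out than that start, so the window lies inside the gene in part or whole. ACGTG was present on either strand in 3 of the 10 (Hk2, Pfkm and Pfkfb3) and in 16.5% of the windows of 27018 genes. The E-box was present in 1 of the 10 (Pfkm) and in 6.04% of the windows. A match is a description of the letters, not a bound site, and other start sites of a gene were not searched. The windows of Hk2 and Pfkm, which hold matches and lie outside the gene, are shown with that of Aldoc, the gene with the largest change. The Aldoc window holds neither ACGTG nor CACGTG on either strand. The windows shown lie at chr6:82774455-82774704 on the minus strand for Hk2, chr15:98092339-98092588 on the plus strand for Pfkm and chr11:78322823-78323072 on the plus strand for Aldoc. Each is written 5′ to 3′ along its gene, up to the base before the start, with the matches in capitals:
Hk2: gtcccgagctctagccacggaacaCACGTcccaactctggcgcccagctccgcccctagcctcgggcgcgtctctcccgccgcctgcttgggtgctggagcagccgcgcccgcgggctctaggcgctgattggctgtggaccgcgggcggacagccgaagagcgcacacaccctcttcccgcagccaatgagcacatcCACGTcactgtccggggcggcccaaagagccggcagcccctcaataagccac
Pfkm: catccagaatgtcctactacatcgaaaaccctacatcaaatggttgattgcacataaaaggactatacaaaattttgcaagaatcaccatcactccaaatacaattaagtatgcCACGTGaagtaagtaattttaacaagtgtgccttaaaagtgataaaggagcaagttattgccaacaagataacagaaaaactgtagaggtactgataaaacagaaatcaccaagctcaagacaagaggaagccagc
Aldoc: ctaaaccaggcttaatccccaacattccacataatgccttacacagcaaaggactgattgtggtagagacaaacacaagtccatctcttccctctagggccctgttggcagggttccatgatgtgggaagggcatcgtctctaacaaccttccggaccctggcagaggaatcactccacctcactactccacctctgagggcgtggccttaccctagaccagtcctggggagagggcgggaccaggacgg
The Hk2 matches begin 226 and 52 bases before the start and both read CACGT, which is ACGTG on the other strand. The match of Pfkfb3, whose window is not shown, begins 60 bases before the start. In Pfkm a single E-box at 136 bases holds both overlapping ACGTG matches.

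The genes also varied together among cultures of one group. With glutamine, replicate 2 was the highest of its group for 9 of the 9 genes, a position it held for 28.1% of all genes and 27.0% of the genes above the median level. Replicate 3 was the lowest of that group for 8 of the 9, against 39.1% of all genes and 47.5% of those above the median level. Without glutamine, replicate 3 was the lowest for 8 of the 9, all but Pfkfb4, against 40.1% and 45.8%. The deviation of with glutamine replicate 2 from its group mean ran from 0.14 to 1.0 log2 over the 9 genes, while its median over all genes was -0.007. Aldoc, Pfkm and Hk2 had the widest spread there. Of 19 genes of lower glycolysis, transport and the side branches that fell, 15 had with glutamine replicate 2 as the highest of its group and 16 had without glutamine replicate 3 as the lowest of its group. Among all 3989 genes that fell these shares were 33.5% and 49.1%. The 17 other measured genes of those lists had the former order in 4 cases and the latter in 8. The 9 genes are not independent of each other, so these counts are a description.

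**Figure D4:**
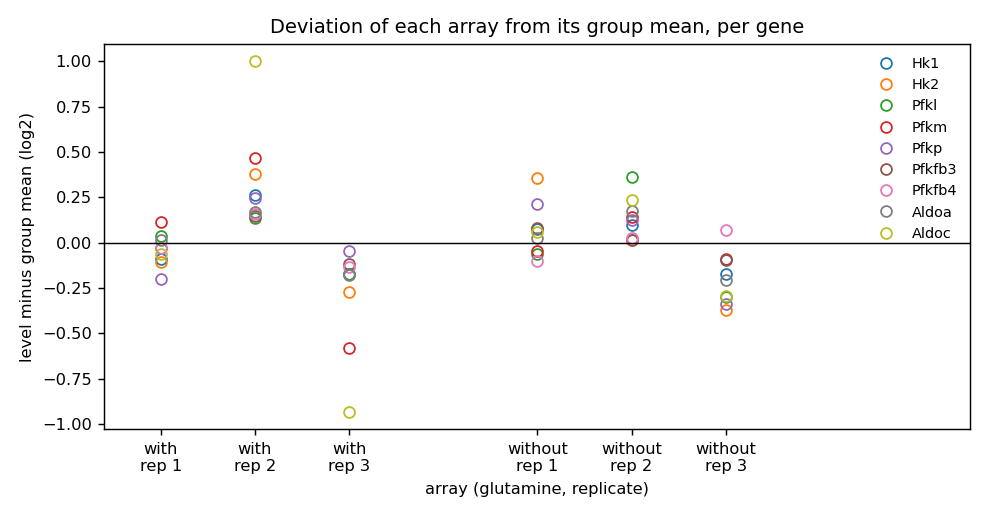
Level minus the mean of its group (vertical axis, log2) for each of 6 arrays, 1 point per gene. All 9 genes lie above 0 on with glutamine replicate 2 and below 0 on with glutamine replicate 3, and Aldoc spans -0.93 to 1.0.

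Of 13 other genes that act at the same steps or reverse them, 9 were measured: 2 fell, 1 rose and 6 did not pass. For 6 of the 9 both group means, 3.35 to 4.28, lay below the array medians, so the median change of 0.04 mostly describes rows of low level. The 3 genes above the array medians were all lower without glutamine. G6pc3, the glucose-6-phosphatase catalytic subunit found in most cells, fell from 10.35 ± 0.07 to 9.56 ± 0.05 (SD, n = 3; limma adjusted p = 0.000878). Adpgk, a glucokinase that uses ADP, fell by 0.35 (limma adjusted p = 0.0171). Tigar, a fructose-2,6-bisphosphatase chosen here after its values were seen, did not pass: its change was -0.67 (limma adjusted p = 0.0787), although the groups did not overlap. Hk3, a hexokinase best known from myeloid cells, rose from 3.95 ± 0.08 to 4.28 ± 0.04 (limma adjusted p = 0.0181), the only one of the 6 dim genes to pass. That call was lost after quantile normalization (0.19, adjusted p = 0.124), after centring (0.18, adjusted p = 0.141), and in the fits lacking replicate 1 with glutamine, replicate 1 without it or replicate 2 without it (adjusted p 0.0537, 0.053 and 0.0587).

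The shares to set beside the following counts are 13.0% of all genes lower and 9.30% higher, or 24.9% and 13.7% among genes above the median level. In lower glycolysis 7 of 11 measured genes fell and 4 did not pass, with a median change of -0.76. The triose-phosphate isomerase gene Tpi1, the first step after aldolase, fell by 2.03, and the phosphoglycerate mutase gene Pgam1 fell by 1.64. Among glucose and lactate transporters 4 of 10 fell, 1 rose and 5 did not pass, with a median of -0.31. The neuronal-type glucose transporter gene Slc2a3 fell by 3.85, and the lactate exporter gene Slc16a3 fell by 2.90. The transporter gene that rose, Slc2a9, which carries urate and hexoses, rose by 0.39 (adjusted p = 0.0223). It lost the call under both rescalings (adjusted p = 0.186 and 0.114) and in 5 of the 6 fits on 5 arrays, the exception being the fit lacking with glutamine replicate 1 (adjusted p from 0.0536 to 0.0767 in those 5). After either rescaling 7 transporter genes fell. Of the side branches, 8 of 15 genes fell and 7 did not pass, with a median of -0.43. With 1 array left out 6 to 9 of them fell, and after either rescaling 10 fell. Most of the 15 genes belong to branches that leave at glucose-6-phosphate or fructose-6-phosphate. Gpd1 and Gpd2, which did not pass, act on products made after aldolase. The phosphoglucomutase gene Pgm2 fell by 2.83, and the glycogen branching enzyme gene Gbe1 fell by 2.68.

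Of 12 regulators, 4 fell and 8 did not pass, with a median of -0.12, to be read against falls in 13.0% of all genes and 24.9% of those above the median level. Egln1, an oxygen-sensing prolyl hydroxylase that marks HIF for decay, fell from 14.15 ± 0.33 to 12.10 ± 0.31 (SD, n = 3). Vhl, part of the ligase that then removes HIF, fell from 8.49 ± 0.09 to 7.59 ± 0.23. Of the activators themselves, chosen here after their values were seen, Hif1a fell by 0.38 (limma adjusted p = 0.0347, the highest of the 4 calls), and Myc did not pass (-0.09, limma adjusted p = 0.453). The count of falls was 2 in the fits lacking replicate 2 with glutamine, replicate 2 without it or replicate 3 without it. It was 3 in the other fits that left out an array and with the replicate block, and 5 after either rescaling.

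**Figure D5:**
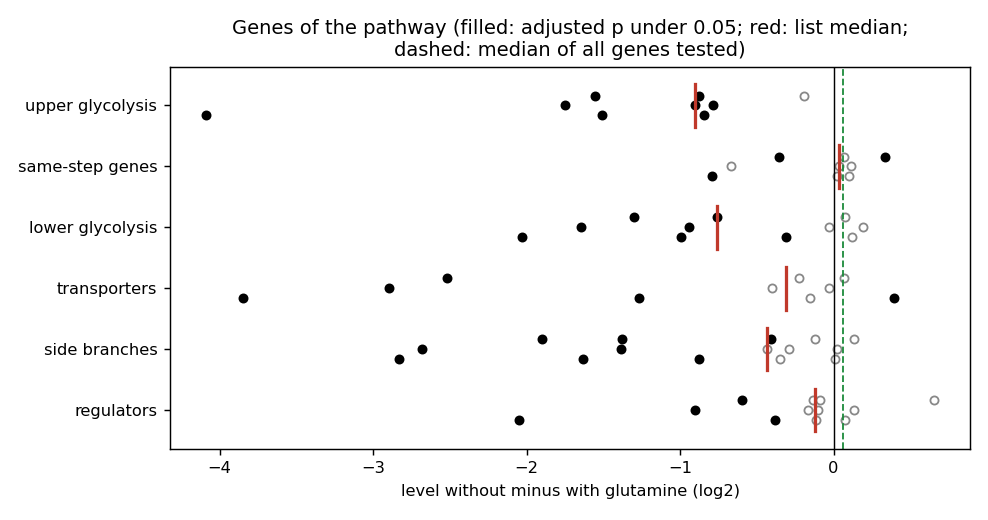
Change of every measured gene (horizontal axis, log2 level without minus with glutamine) in 6 groups of genes; filled points have an adjusted p under 0.05, red marks are list medians and the dashed line is the median of all genes tested. The upper glycolysis genes have a median of -0.91; that of the same-step genes, 0.04, rests mostly on 6 rows below the array medians.

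The genes nearest to Hk2 by Euclidean distance of mean-centred levels over the 6 arrays were Ppme1 (distance 0.241 log2), Mthfd1l (0.361) and Gla (0.364). Ppme1 fell from 13.19 ± 0.37 to 11.69 ± 0.26 (SD, n = 3), a change of -1.51 beside -1.55 for Hk2. Nearest to Aldoc were Tgm2 (0.460), Slc2a3 (0.461) and Ndrg1 (0.552), with changes of -4.44, -3.85 and -3.78. These distances rest on 2 groups of 3 arrays, so the difference between the groups sets most of them.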

How the data were processed

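The authors deposited 1 log2 level for every row of each array. Per the submitters' processing notes they used RMA and the Transcriptome Analysis Console 4.0; options, array annotation and build: not given in the sources used here. All 6 columns were used as deposited (0 columns of other samples). Platform symbols were updated through RefSeq's gene table: of 65956 rows, 31258 named 1 gene, 1492 several and 33206 none here. For symbols with several rows the row with the highest mean was kept, leaving 30701 genes without a filter on dim ones.

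Each gene was fitted with limma 3.58.1 in R 4.3.3 (lmFit, eBayes, two-sided, without minus with glutamine, no covariate), with Benjamini-Hochberg adjustment over all genes and a threshold of 0.05. Isoenzyme pairs were compared by an exact permutation test over arrays. On simulated data of 30701 genes with 200 changed, the fit recovered 22% of changes of 0.5 log2, 82% of 1, 96% of 2 and 96% of 3, with 6 false calls. The simulated noise was independent between genes. In the real data 3989 genes were called lower and 2856 higher, so these shares need not hold there. The number of arrays limits precision.

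The members and lists were chosen with earlier results of these data known. All members are named, every called gene of the same steps, the 2 largest called changes of each other list (lower glycolysis, transporters, side branches, regulators), and the 3 nearest protein-coding profiles to Hk2 and to Aldoc. Alternatives were quantile normalization, centring arrays on their medians, genes above the median level, all rows, row means, trend and robust, array weights, a replicate block, stricter thresholds and leaving out each array. Promoter windows are RefSeq's for GRCm38.p6. Figures used matplotlib 3.10.9 in Python 3.11.15.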

Additional observations from a re-analysis of the deposited data

How the results depend on the processing

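All 9 genes kept a negative change in the 14 refits made, and 7 of the 8 falls kept their call in each; the exception, Pfkp, is given above and also missed a threshold of 0.01 (adjusted p = 0.0182). Rescaling moved the median change of all genes from 0.060 to -0.048 (quantile normalization) and -0.095 (centring), and the share of rises among all calls from 41.7% to 21.7% and 16.6%, while the median of the 9 genes went from -0.91 to -1.01 and -1.06. The count of falls was 4 with at least 1 log2 required (4 to 6 over the refits, an alternative chosen after seeing the data) and ran from 7 to 8 with 1 array left out, and 0 genes rose. With 1 array left out the differences ran from -0.82 to -0.58 for Hk2 minus Hk1, 0.77 to 1.03 for Pfkp minus Pfkl, 0.04 to 0.41 for Pfkm minus Pfkl, 0.51 to 0.68 for Pfkfb4 minus Pfkfb3 and -3.56 to -2.77 for Aldoc minus Aldoa.

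Under quantile normalization and under centring, 7 transporter genes fell and 0 rose, and 0 same-step genes rose. With 1 array left out, rises ran from 0 to 1 among same-step genes, 0 to 1 among transporters and 0 to 1 among regulators, and falls among regulators from 2 to 3; the cause was not tested. Arrays with the same replicate number did not deviate together throughout (r = 0.066, -0.234 and 0.276 over all genes), so the numbers were not taken as pairs. With the replicate block 8 of the 9 genes fell and the calls of the 9 did not change; 1 regulator gene, Mlxip, rose (0.65, adjusted p = 0.0243).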
